A study of Mus musculus with 40 samples.

Results

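Brown adipose tissue (BAT) of chow-fed C-3BO mice was compared with that of chow-fed control littermates by RNA sequencing, gene by gene. C-3BO mice carry a *Gpr3* transgene at the Rosa26 locus, driven by the CAG promoter behind a floxed stop cassette, together with *Ucp1*-Cre, so that *Gpr3* is overexpressed where *Ucp1* is active, in brown and beige adipocytes. The controls carried either the transgene without Cre or Cre without the transgene, and which of these a given control mouse was is not part of the labels used here. The members of the comparison were chosen by their labels: 5 C-3BO and 5 control mice on chow, 10 of the 40 mice of the series. The males were between 13 and 19 weeks old and all 10 were kept on chow at 29 °C, near thermoneutrality, where the sympathetic drive to BAT is low. The other 30 mice were C-3BO and control mice on a high-fat diet (HFD) and mice injected with saline or with CL, an agonist of the β3-adrenergic receptor, on either diet. They entered the filter that set which genes were tested, the scaling factors and the estimate of the spread between mice. They also entered the measure of muscle transcripts and 1 comparison with HFD.

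GPR3 is an orphan receptor coupled to Gs that raises cyclic AMP (cAMP) without an added ligand. In brown adipocytes, cAMP is normally raised by noradrenaline acting on β-adrenergic receptors, and it activates protein kinase A, which starts lipolysis and the transcription of thermogenic genes such as *Ucp1*, the uncoupling protein through which brown fat mitochondria make heat. The comparison therefore asks which transcripts differ in BAT when a cAMP-raising receptor is made in its adipocytes while mice are warm and fed chow.

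Between 7453294 and 14193478 counts per control mouse and between 7584434 and 10488247 per C-3BO mouse fell on the 20295 listed genes. Levels are given in CPM, that is, counts scaled to a common library size after correction by TMM factors, which lay between 0.924 and 1.01 in control mice and between 0.798 and 0.918 in C-3BO mice. A level of 3 counts, taken as the smallest the depth can show, was 0.208 to 0.452 CPM in these 10 libraries and covers counting error only. All 12 genes of the brown adipocyte list were detected, their summed level being 5496 to 7599 CPM in control and 11220 to 15410 CPM in C-3BO mice. Within this sum *Ucp1* alone had a mean of 1239 CPM in control and 6433 CPM in C-3BO mice. In these 10 libraries *Alb* and *Lcn8*, markers of the liver and epididymis RNA found in other libraries of the series, did not exceed 1.62 CPM and 0 CPM. The groups were tested gene by gene with the quasi-likelihood method of edgeR over 13277 genes that passed a filter on low counts, with Benjamini-Hochberg adjustment, and a gene was called induced above a log2 fold change of 1 and reduced below -1, each at an adjusted p under 0.05. The mice are separate samples in the labels. Control mouse 1 stood apart by few skeletal muscle transcripts and control mouse 5 by many interferon-responsive ones. The numbers of reduced genes in the skeletal muscle and interferon lists are given with and without the mouse concerned.

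*Gpr3* (RefSeq NM_008154, chromosome 4 of mm9 from 132765255 to 132768451 on the minus strand) had 0.744, 0.101, 0.336, 0.625 and 0.133 CPM in control mice 1 to 5 and 445, 266, 381, 463 and 323 CPM in C-3BO mice 1 to 5. Every C-3BO mouse lay far above every control mouse, whose counts were near the smallest detectable level. *Gpr3* thus rose by 9.72 on the log2 scale, with a standard error of 0.53 (edgeR adjusted p = 1.55e-16). The transcript of the transgene and that of the endogenous gene could not be told apart.

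In C-3BO mice, 315 genes were induced and 639 reduced, which is 2.37% and 4.81% of all tested genes. At the adjusted p-value alone the numbers were nearly equal, with 2093 genes higher (15.8%) and 2107 lower (15.9%), so that the excess of reduced genes arose beyond the threshold of 1 on the log2 scale. The reduced genes were expressed at lower levels, with a median of 7.56 CPM in the group where they were higher, against 16.4 CPM for induced genes and 25.2 CPM for all tested genes. Of the reduced genes, 377 reached a mean of 5 CPM in one of the groups, and of the induced genes 216. Above an absolute log2 fold change of 1.5 there were 290 reduced and 133 induced genes, and above 2 there were 120 and 67, but above 3 the order turned, with 22 reduced and 28 induced. Over all tested genes, all 5 C-3BO mice lay above all 5 control mice for 1388 (10.5%) and below them for 1065 (8.02%). Groups were apart in this way for 250 of the 315 induced genes (79.4%) and for 337 of the 639 reduced genes (52.7%). For any single gene with groups apart, the exact two-sided permutation test gives p = 0.00794, the smallest that 5 mice against 5 allow.

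**Figure D1:**
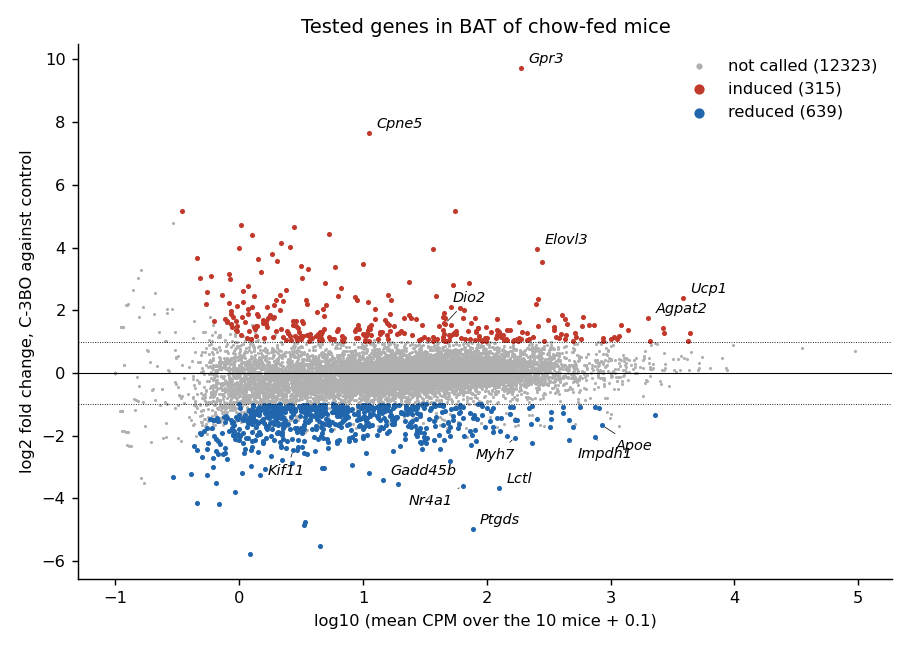
Each point is one of the 13277 tested genes, with the mean level over the 10 mice (log10 of CPM plus 0.1) on the x axis and the log2 fold change of C-3BO against control mice on the y axis. The 639 reduced genes (blue) tend to lie at lower levels than the 315 induced genes (red). The median log2 fold changes are -1.44 and 1.38, and the largest change is that of *Gpr3* at 9.72. Dotted lines mark 1 and -1.

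The largest increases after *Gpr3*, among genes with groups apart and a mean of at least 5 CPM, belonged to *Cpne5*, *Slc25a34*, *Rims2*, *Chrna2*, *Tfr2*, *Elovl3*, *Ehhadh*, *Vil1*, *Slco1a1*, *Tc2n* and *Acot1*. *Cpne5*, a calcium-dependent phospholipid-binding protein of the copine family, had 0, 0.101, 0.224, 0.0695 and 0.133 CPM in control mice 1 to 5 and 41.3, 11.9, 21.3, 22.0 and 13.9 CPM in C-3BO mice 1 to 5. Control mice held at most 2 counts of it each, so its size is given by the ratio of the summed counts (851 against 5), each first divided by its group's summed library size after TMM correction, which was 227 (exact 95% counting interval 96.8 to 700). *Slc25a34*, a member of the mitochondrial carrier family, had 2.06, 3.14, 1.34, 4.93 and 2.93 CPM in control mice 1 to 5 and 151, 92.7, 118, 127 and 51.5 CPM in C-3BO mice 1 to 5. The lowest C-3BO mouse was still over 10 times the highest control mouse (log2 fold change 5.18, standard error 0.79, edgeR adjusted p = 4.73e-06). *Rims2*, which belongs to the presynaptic active zone, rose by a ratio, scaled to library size in the same way, of 27.2 (exact 95% counting interval 14.5 to 57.5). *Chrna2*, a subunit of the nicotinic acetylcholine receptor, had 0.428 ± 0.231 CPM in control mice against 9.93 ± 6.001 CPM in C-3BO mice (SD, n = 5 each, log2 fold change 4.42, edgeR adjusted p = 4.04e-07). *Tfr2*, a transferrin receptor that senses iron, had 4.48 ± 2.00 CPM in control mice against 69.0 ± 10.1 CPM in C-3BO mice (SD, n = 5 each, log2 fold change 3.97, edgeR adjusted p = 8.04e-13).

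*Elovl3*, an elongase of very long chain fatty acids and a long-known marker of active BAT, had 31.5, 39.6, 36.9, 19.6 and 28.2 CPM in control mice 1 to 5 and 422, 436, 609.9, 402 and 531 CPM in C-3BO mice 1 to 5. The groups were far apart and the spread within each was small (log2 fold change 3.95, standard error 0.41, edgeR adjusted p = 3.26e-09). *Ehhadh*, the bifunctional enzyme of peroxisomal β-oxidation, had 46.4, 46.0, 36.8, 49.1 and 44.6 CPM in control mice 1 to 5 and 1008, 348, 523, 579 and 131 CPM in C-3BO mice 1 to 5. C-3BO mice varied widely for this gene, mouse 1 being highest and mouse 5 lowest (log2 fold change 3.54, standard error 0.54, edgeR adjusted p = 4.70e-06). *Vil1*, *Slco1a1*, *Tc2n* and *Acot1* rose by log2 fold changes of 3.48, 3.40, 3.38 and 3.31 (edgeR adjusted p between 5.30e-12 and 0.00116). *Acot1*, a cytosolic acyl-CoA thioesterase, has close paralogs, and reads shared with them cannot be assigned here.

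Of the 32 tested genes of a thermogenesis list, 9 were induced and none reduced, against 2.37% and 4.81% of all tested genes, and the list's median log2 fold change was 0.45 against -0.03 for all genes. The number of positive fold changes was 28 of 32, and 20 when libraries were scaled by their totals only. *Ucp1* (RefSeq NM_009463, chromosome 8 of mm9 from 85814247 to 85822355 on the plus strand) had 1148, 1296, 1256, 1377 and 1116 CPM in control mice 1 to 5 and 5787, 5382, 7537, 7065 and 6391 CPM in C-3BO mice 1 to 5. All C-3BO mice were above all control mice (log2 fold change 2.38, standard error 0.28, edgeR adjusted p = 3.57e-08). *Otop1*, an otopetrin proton channel enriched in brown fat, had 199 ± 30.5 CPM in control mice against 651 ± 54.2 CPM in C-3BO mice (SD, n = 5 each, log2 fold change 1.71, edgeR adjusted p = 6.12e-08). *Dio2*, the deiodinase that makes active thyroid hormone within brown adipocytes, had 10.2, 21.3, 27.3, 26.5 and 31.4 CPM in control mice 1 to 5 and 18.4, 70.4, 80.04, 77.4 and 96.7 CPM in C-3BO mice 1 to 5. The groups overlapped through C-3BO mouse 1, which lay below 4 of the control mice (log2 fold change 1.57, standard error 0.44, edgeR adjusted p = 0.00624). *Pdk4*, the kinase that switches off pyruvate dehydrogenase, also overlapped, with C-3BO mouse 5 at 1978 CPM below 2 control mice (log2 fold change 1.28, edgeR adjusted p = 9.90e-04), while *Acot11*, a thioesterase named here after its values were seen, did not (log2 fold change 1.52, edgeR adjusted p = 4.02e-04). In the brown adipocyte list 4 of 12 genes were induced and 1 was reduced. The reduced gene was *Lhx8*, named after its values were seen, with groups apart (log2 fold change -1.08, edgeR adjusted p = 0.00463).

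**Figure D2:**
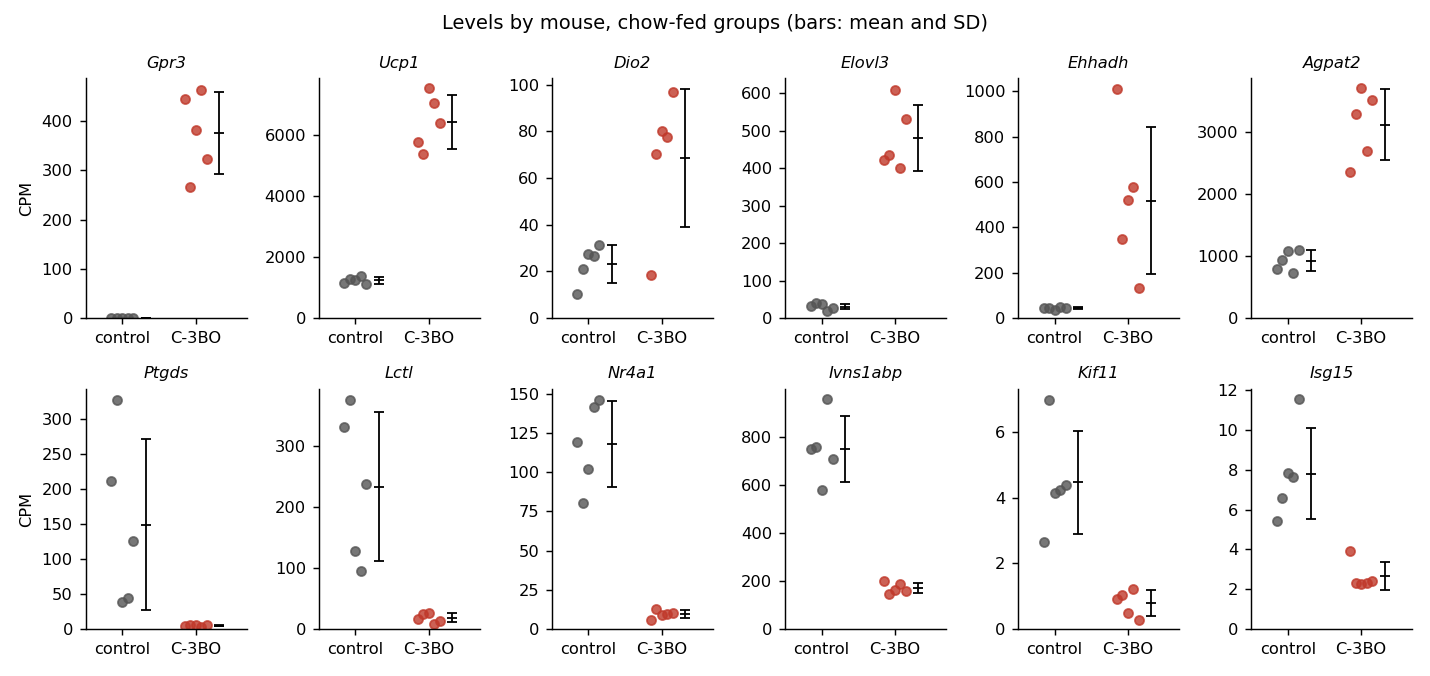
Levels in CPM on linear axes from 0 for 12 genes, with control mice in grey, C-3BO mice in red and the mean and SD beside them. The upper row shows induced genes, with only C-3BO mouse 1 among the control mice for *Dio2*, and the lower row shows reduced genes, with the 5 C-3BO mice below the 5 control mice in each panel.

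Other genes usually read as signs of thermogenic activation differed little. *Ppargc1a*, the coactivator of mitochondrial biogenesis, had 68.7, 84.0, 70.3, 81.5 and 102 CPM in control mice 1 to 5 and 83.6, 77.4, 97.7, 78.9 and 81.2 CPM in C-3BO mice 1 to 5. The groups lay on top of each other (log2 fold change 0.04, standard error 0.17, edgeR adjusted p = 0.879). *Cidea*, a lipid droplet protein of brown adipocytes, had 2597 ± 321 CPM in control mice against 2777 ± 468 CPM in C-3BO mice (SD, n = 5 each, log2 fold change 0.10, edgeR adjusted p = 0.615). The β3-adrenergic receptor *Adrb3*, at 246 ± 38.4 CPM in control mice against 370.1 ± 70.8 CPM in C-3BO mice (SD, n = 5 each), passed the adjusted p but not the fold threshold (log2 fold change 0.59, edgeR adjusted p = 0.0278), and *Adrb1* was at 34.9 ± 9.44 CPM in control mice against 38.4 ± 6.28 CPM in C-3BO mice (SD, n = 5 each, log2 fold change 0.14, edgeR adjusted p = 0.64). Under TMM scaling 57 of the 79 tested subunits of oxidative phosphorylation had negative log2 fold changes. None of the 79 was induced and 2 were reduced, against 2.37% and 4.81% of all tested genes. Those 2 were *Cox6a2*, an isoform of heart and skeletal muscle whose log2 fold change went from -1.82 to 0.42 when muscle transcripts were allowed for, and *Atp5g1*, a subunit of ATP synthase, at a mean of 0.813 CPM in C-3BO mice (log2 fold change -1.88, edgeR adjusted p = 0.0331), whose paralogs code for the same mature protein, which makes its counts uncertain, and whose call was lost with the muscle score in the model (-1.12, edgeR adjusted p = 0.209), by DESeq2, with no filter on low counts and without 6 of the 10 mice in turn. Of the 77 mitochondrial ribosomal proteins, none was induced or reduced, 24 were higher and 4 lower by the adjusted p alone, against 15.8% and 15.9% of all genes. When libraries were scaled by their totals only, the positive fold changes went from 22 to 7 for the respiratory subunits and from 55 to 37 for the mitochondrial ribosome. Most respiratory subunits were thus negative under both scalings, while the mitochondrial ribosome went from mostly positive to nearly even.

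Some genes of lipid handling were induced in several of its steps. In triglyceride synthesis 4 of 16 tested genes were induced and none reduced, and in the peroxisome list 4 of 34 were induced and 1 reduced, against 2.37% and 4.81% of all tested genes. *Agpat2*, which makes phosphatidic acid on the way to triglyceride, had 784, 930, 1082, 723 and 1099 CPM in control mice 1 to 5 and 2352, 3290, 3705, 2688 and 3511 CPM in C-3BO mice 1 to 5. All C-3BO mice exceeded all control mice more than 2-fold (log2 fold change 1.75, standard error 0.25, edgeR adjusted p = 1.57e-06). *Agpat6*, a glycerol-3-phosphate acyltransferase of the same route, and *Mogat1*, which acylates monoacylglycerol, rose with log2 fold changes of 1.14 and 1.29 (edgeR adjusted p = 8.74e-05 and 7.45e-06). *Acaa1b*, a peroxisomal thiolase with a close paralog, rose with a log2 fold change of 2.87 (edgeR adjusted p = 8.22e-11).

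In mitochondrial fatty acid oxidation 2 of 20 tested genes were induced, *Acsl1*, which activates long chain fatty acids, and *Etfdh*, which passes their electrons to the respiratory chain, and 14 were higher by the adjusted p alone, against 15.8% of all genes. *Acsl1* had 1326, 1470, 1133, 1708 and 1544 CPM in control mice 1 to 5 and 4388, 3701, 3893, 3834 and 3345 CPM in C-3BO mice 1 to 5. The groups did not overlap (log2 fold change 1.42, standard error 0.18, edgeR adjusted p = 2.94e-07). Among genes of lipolysis and the lipid droplet, 3 of 14 were induced and 1 reduced, against 2.37% and 4.81% of all tested genes. *Mgll*, the monoacylglycerol lipase, had 813, 778, 753, 767 and 752 CPM in control mice 1 to 5 and 2005, 1890, 2247, 2061 and 1833 CPM in C-3BO mice 1 to 5. The control mice were nearly alike and every C-3BO mouse was far above them (log2 fold change 1.38, standard error 0.16, edgeR adjusted p = 2.65e-08). *Cidec*, a droplet protein, rose (log2 fold change 1.13, edgeR adjusted p = 4.71e-05), and *Hilpda*, an inhibitor of the main triglyceride lipase, fell (log2 fold change -1.46, edgeR adjusted p = 1.07e-04). The triglyceride lipase *Pnpla2* itself had 4198 ± 549.8 CPM in control mice against 4491 ± 469.5 CPM in C-3BO mice (SD, n = 5 each, log2 fold change 0.10, edgeR adjusted p = 0.465), the hormone-sensitive lipase *Lipe* had 2594 ± 377 CPM in control mice against 2881 ± 281 CPM in C-3BO mice (SD, n = 5 each, log2 fold change 0.15, edgeR adjusted p = 0.201), and lipoprotein lipase *Lpl* had 4640 ± 663 CPM in control mice against 5720 ± 549.9 CPM in C-3BO mice (SD, n = 5 each, log2 fold change 0.30, edgeR adjusted p = 0.15).

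*Slc27a1*, a fatty acid transport protein, rose (log2 fold change 1.26, edgeR adjusted p = 3.02e-05), while *Angptl4*, a secreted inhibitor of lipoprotein lipase, fell with overlapping groups (log2 fold change -1.09, edgeR adjusted p = 0.013), a call that was lost without control mouse 4. These were the 2 called genes of 17 tested in fatty acid uptake. None of the 11 genes of de novo lipogenesis was called, but 9 of the 11 log2 fold changes were positive. Their median was 0.52 against -0.03 for all tested genes. By the adjusted p alone 4 were higher and none lower, against 15.8% and 15.9% of all tested genes. The summed level of the list, much of it *Fasn*, was 27680 to 53520 CPM in control mice and 53920 to 76250 CPM in C-3BO mice, without overlap. Fatty acid synthase *Fasn*, among the most abundant transcripts of BAT, had 29180, 36650, 25250, 16020 and 23370 CPM in control mice 1 to 5 and 42840, 47440, 48590, 37400 and 47950 CPM in C-3BO mice 1 to 5. Every C-3BO mouse was above every control mouse, yet the gene did not pass the test across all groups (log2 fold change 0.78, standard error 0.47, edgeR adjusted p = 0.205). Of 22 cholesterol synthesis genes 2 were induced and none reduced, against 2.37% and 4.81% of all tested genes. *Idi1*, an isomerase of that route, was induced (log2 fold change 1.32, edgeR adjusted p = 0.0028), although C-3BO mouse 1, at 0.904 CPM, lay below all control mice. *Cyp4a10* and *Cyp4a14*, fatty acid ω-hydroxylases with nearly alike sequences, were at the limit of detection, with 26 against 2 and 36 against 5 summed counts and ratios, after scaling to library size, of 17.3 (exact 95% counting interval 4.33 to 151) and 9.59 (exact 95% counting interval 3.75 to 31.3). Both were called induced (edgeR adjusted p = 0.0206 and 0.0258), but the groups of *Cyp4a14* overlapped. The call of *Cyp4a10* was lost without control mouse 4 or C-3BO mouse 3. That of *Cyp4a14* was lost without control mouse 1 or 3 or C-3BO mouse 2. In glycolysis and its control, *Pfkp*, a phosphofructokinase, joined *Pdk4* as the 2 induced of 25 genes (log2 fold change 1.02, edgeR adjusted p = 1.55e-05).

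The called elongases and desaturases split by kind. Over all tested genes, 2.37% were induced and 4.81% reduced. The 3 induced members were elongases, *Elovl3*, *Elovl4* (log2 fold change 2.18, edgeR adjusted p = 3.02e-05) and *Elovl6*, the last just past the threshold at 1.01, and the 3 reduced members were the desaturases *Fads1*, *Fads2* and *Fads3*, of 14 tested. The desaturases *Scd1* to *Scd4* of the same list were not called, and *Scd1* was the most abundant gene of every library compared. With RLE or upper-quartile factors, library totals or the muscle score in the model, 2 members of the list were induced. *Fads1*, the Δ5 desaturase of polyunsaturated fatty acids, had 45.5, 45.1, 50.8, 45.4 and 52.0 CPM in control mice 1 to 5 and 17.2, 24.5, 20.2, 20.7 and 22.8 CPM in C-3BO mice 1 to 5. Control mice lay between 45.1 and 52.0 CPM and C-3BO mice at less than 25 CPM (log2 fold change -1.18, standard error 0.18, edgeR adjusted p = 6.77e-06). *Fads2*, the Δ6 desaturase, and *Fads3*, both named after their values were seen, fell from 8.88 ± 2.40 CPM to 4.16 ± 0.664 CPM and from 122 ± 54.4 CPM to 30.6 ± 12.3 CPM (SD, n = 5 each), with edgeR adjusted p = 6.65e-04 and 1.28e-04.

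Genes that set the size and length of a cAMP signal changed in both directions, against 2.37% induced and 4.81% reduced among all tested genes. Of 13 tested Gs-coupled receptors 3 were induced and none reduced: *Gpr3* itself, *Gipr*, the receptor of an incretin hormone (log2 fold change 1.04, edgeR adjusted p = 0.00292), and *Vipr2*, a receptor of vasoactive intestinal peptide (log2 fold change 1.596, edgeR adjusted p = 0.016), the latter pair at means of 3.81 and 2.20 CPM in C-3BO mice. Of 16 phosphodiesterases, which break down cyclic nucleotides, 3 were induced and none reduced. *Pde4d* had 138, 150.1, 106, 163 and 170 CPM in control mice 1 to 5 and 271, 307, 280.4, 420.4 and 344 CPM in C-3BO mice 1 to 5. All C-3BO mice were above all control mice (log2 fold change 1.16, standard error 0.20, edgeR adjusted p = 2.81e-05). *Pde7b* rose likewise (log2 fold change 1.76, edgeR adjusted p = 7.40e-08), while *Pde3a* rose with overlapping groups (log2 fold change 1.01, edgeR adjusted p = 0.019) and lost its call with library totals, with the muscle score in the model (edgeR adjusted p = 0.0516) and without control mouse 3 or C-3BO mouse 1 or 4. None of 9 adenylyl cyclases was called. Among 20 RGS proteins and arrestins, which shut off G protein signals, *Rgs2* and *Rgs11* were reduced and none was induced. *Rgs2* had 376, 424, 327, 454 and 350.3 CPM in control mice 1 to 5 and 78.2, 99.8, 80.3, 108 and 38.0 CPM in C-3BO mice 1 to 5. The groups were far apart (log2 fold change -2.25, standard error 0.25, edgeR adjusted p = 1.27e-08), and *Rgs11* fell with a log2 fold change of -2.58 (edgeR adjusted p = 1.75e-05). In the protein kinase A list the 1 called gene of 14 was *Pkia*, an inhibitor of the kinase that is abundant in muscle, which was reduced with overlapping groups (log2 fold change -1.53, edgeR adjusted p = 0.0104). Its level across these 10 mice, centred within groups, correlated with muscle transcripts at r = 0.998 (n = 10 libraries), and it stood at -1.02 (edgeR adjusted p = 0.0654) with the muscle score in the model.

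Early genes known to answer to cAMP did not move together. Of 16 tested, 3 were induced and 3 reduced, against 2.37% and 4.81% of all tested genes, and the median log2 fold change was -0.58. *Nr4a1*, an orphan nuclear receptor transcribed within minutes of a cAMP rise, had 119, 80.3, 102, 142 and 146 CPM in control mice 1 to 5 and 5.88, 12.8, 8.60, 9.74 and 10.3 CPM in C-3BO mice 1 to 5. It was low in each C-3BO mouse, without overlap (log2 fold change -3.63, standard error 0.55, edgeR adjusted p = 3.79e-06). *Sik1*, a kinase that limits CREB coactivators, was induced (log2 fold change 2.09, edgeR adjusted p = 4.83e-05), as was *Gadd45g* (log2 fold change 1.20, edgeR adjusted p = 0.013), whereas the transcription factor *Atf3* was reduced (log2 fold change -1.41, edgeR adjusted p = 0.036), a call lost with the muscle score in the model (edgeR adjusted p = 0.0971) and without any one of control mice 3, 4 and 5 or C-3BO mice 1, 3, 4 and 5. These 3 were named after their values were seen. *Gadd45b*, a stress-induced relative of *Gadd45g*, had 42.0, 27.0, 20.4, 24.9 and 17.7 CPM in control mice 1 to 5 and 1.66, 2.78, 2.51, 2.21 and 3.01 CPM in C-3BO mice 1 to 5. The 2 relatives thus differed in direction (log2 fold change -3.43, standard error 0.38, edgeR adjusted p = 1.25e-08).

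The promoters of *Ucp1*, *Dio2* and *Nr4a1* are printed because these are known targets of cAMP signalling that moved in opposite directions here. They come from RefSeq on GRCm38.p6, a later build than the counts, and hold 250 bases before and 50 after the annotated start. Capitals mark the full cAMP response element TGACGTCA, a palindrome and so the same on both strands, or, where no full element was found, its half-site TGACG on either strand (CGTCA on the strand shown). A full element always holds a half-site.
*Ucp1*, chr8:83290098-83290397, plus strand: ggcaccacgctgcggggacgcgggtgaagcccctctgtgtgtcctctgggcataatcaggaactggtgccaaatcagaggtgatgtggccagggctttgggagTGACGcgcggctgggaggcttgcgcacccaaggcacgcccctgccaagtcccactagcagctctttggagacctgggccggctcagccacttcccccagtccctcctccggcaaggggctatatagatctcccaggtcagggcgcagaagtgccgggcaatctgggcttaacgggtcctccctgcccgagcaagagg
*Dio2*, chr12:90738989-90739288, minus strand: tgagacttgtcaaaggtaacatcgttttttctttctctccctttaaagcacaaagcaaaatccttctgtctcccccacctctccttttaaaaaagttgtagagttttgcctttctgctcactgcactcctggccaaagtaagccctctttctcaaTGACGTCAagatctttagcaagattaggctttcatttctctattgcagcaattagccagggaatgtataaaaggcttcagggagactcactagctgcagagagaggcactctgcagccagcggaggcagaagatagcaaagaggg
*Nr4a1*, chr15:101266596-101266895, plus strand: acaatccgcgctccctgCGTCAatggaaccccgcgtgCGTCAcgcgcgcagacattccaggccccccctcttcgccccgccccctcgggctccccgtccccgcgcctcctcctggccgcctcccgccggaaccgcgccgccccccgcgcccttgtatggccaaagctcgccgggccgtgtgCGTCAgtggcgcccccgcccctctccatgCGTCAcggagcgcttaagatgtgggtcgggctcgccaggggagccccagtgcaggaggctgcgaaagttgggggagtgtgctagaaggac
The full element was found once in *Dio2* and the half-site once in *Ucp1* and 4 times in *Nr4a1*. Of 10047 tested genes with a promoter matched by symbol, 348 held the full element (3.46%) and 3433 the half-site (34.2%). Among induced genes it was 4 of 232 (1.72%) and 53 of 232 (22.8%), and among reduced genes 11 of 460 (2.39%) and 119 of 460 (25.9%). Both shares were thus lower in the called genes than over all promoters, which is given as a description of these letters in this window.

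Among the 639 reduced genes, the 12 largest decreases with groups apart and a mean of at least 5 CPM were *Prr32*, *Ptgds*, *Fras1*, *Phyhip*, *Lctl*, *Nr4a1*, *Strip2*, *Gadd45b*, *Plekhg6*, *Col28a1*, *Rab11fip4* and *Zwilch*, and none of them is on a muscle list. In bulk tissue, fewer cells of a type and less RNA per cell cannot be told apart. *Ptgds*, the lipocalin-type prostaglandin D synthase (RefSeq NM_008963, chromosome 2 of mm9 from 25322232 to 25325269 on the minus strand), had 211, 326, 38.6, 44.3 and 125 CPM in control mice 1 to 5 and 4.07, 5.56, 5.26, 3.21 and 5.44 CPM in C-3BO mice 1 to 5. Control mice varied widely, and even the lowest was far above the highest C-3BO mouse (log2 fold change -4.98, standard error 0.44, edgeR adjusted p = 1.23e-10). *Lctl*, a klotho-related membrane protein (RefSeq NM_145835, chromosome 9 of mm9 from 63964954 to 63985925 on the plus strand), had 329.6, 374, 128, 95.1 and 237 CPM in control mice 1 to 5 and 16.9, 24.6, 26.0, 8.64 and 13.8 CPM in C-3BO mice 1 to 5. The groups were again far apart (log2 fold change -3.69, standard error 0.39, edgeR adjusted p = 5.52e-09). *Strip2*, a striatin-interacting protein, had 42.8, 31.3, 35.6, 28.4 and 38.7 CPM in control mice 1 to 5 and 1.21, 2.89, 4.30, 2.88 and 3.44 CPM in C-3BO mice 1 to 5. Here the control mice were alike and the C-3BO mice were all under 5 CPM (log2 fold change -3.56, standard error 0.37, edgeR adjusted p = 3.16e-09).

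*Prr32* fell from 8.67 ± 5.52 CPM to 0.167 ± 0.192 CPM (SD, n = 5 each, log2 fold change -5.51, edgeR adjusted p = 7.90e-05). *Fras1*, an extracellular matrix protein of basement membranes, held at most 3 counts in any C-3BO mouse, and its summed counts, scaled to library size, were higher in control mice by a ratio of 31.1 (exact 95% counting interval 15.6 to 72.6). *Prr32* and *Phyhip* held at most 4 counts in any C-3BO mouse, and *Phyhip* fell from 6.42 ± 3.06 CPM to 0.207 ± 0.205 CPM (SD, n = 5 each, log2 fold change -4.76, edgeR adjusted p = 2.37e-06). *Plekhg6*, a guanine nucleotide exchange factor, *Col28a1*, a collagen, *Rab11fip4*, an effector of the recycling endosome, and *Zwilch*, a kinetochore protein, had log2 fold changes of -3.18, -3.05, -3.03 and -2.95 (edgeR adjusted p between 6.12e-08 and 6.24e-06). For all 12 genes the change stayed past the adjusted p and in the same direction with library totals, RLE factors, DESeq2, the muscle score in the model and each mouse left out.

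The reduced genes of highest level were a different set, listed here after their values were seen. The 12 with the highest mean in control mice among those with groups apart were *Apoe*, *Impdh1*, *Cst3*, *Ppp1cb*, *Tmem45b*, *Ivns1abp*, *Hp*, *Hipk3*, *Npr3*, *Nudt4*, *Rgs2* and *Ltbp2*. *Apoe*, the apolipoprotein E of lipoproteins and macrophages, had 1244, 844, 1414, 1846 and 1094 CPM in control mice 1 to 5 and 328, 372, 593, 344 and 396 CPM in C-3BO mice 1 to 5. The highest C-3BO mouse was below the lowest control mouse (log2 fold change -1.66, standard error 0.19, edgeR adjusted p = 3.82e-08). *Impdh1*, which makes guanine nucleotides, had 1360, 1088, 941, 1405 and 1253 CPM in control mice 1 to 5 and 357, 225, 242, 329 and 326 CPM in C-3BO mice 1 to 5. The control mice were all over 3 times the mean of the C-3BO mice (log2 fold change -2.03, standard error 0.26, edgeR adjusted p = 2.98e-07). *Ivns1abp*, a kelch protein that binds actin, had 749, 756, 577, 957 and 708 CPM in control mice 1 to 5 and 198, 145, 160, 186 and 159 CPM in C-3BO mice 1 to 5. Its groups were as far apart (log2 fold change -2.14, standard error 0.21, edgeR adjusted p = 1.53e-09).

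*Hipk3*, a homeodomain-interacting protein kinase, had 570.1, 748, 398, 556 and 660.3 CPM in control mice 1 to 5 and 242, 240.4, 232, 244 and 239 CPM in C-3BO mice 1 to 5. All 5 C-3BO mice lay between 232 and 244 CPM, a far narrower range than in control mice (log2 fold change -1.29, standard error 0.17, edgeR adjusted p = 2.64e-07). *Cst3*, the protease inhibitor cystatin C, *Ppp1cb*, a catalytic subunit of protein phosphatase 1, *Tmem45b*, *Hp*, the haemoglobin scavenger haptoglobin, and *Nudt4* had log2 fold changes of -1.12, -1.10, -1.73, -1.50 and -1.25 (edgeR adjusted p between 3.70e-09 and 5.93e-05). *Gpx3*, the plasma glutathione peroxidase, was the most abundant reduced gene, at 3259 ± 1289 CPM in control mice against 1297 ± 174 CPM in C-3BO mice (SD, n = 5 each, log2 fold change -1.33, edgeR adjusted p = 6.56e-07), with control mouse 2 inside the C-3BO range.

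Among the gene lists outside muscle, the cell cycle list had the most reduced members. Of 33 tested, 19 were reduced and none induced, against 4.81% of all genes reduced, the median log2 fold change was -1.27 against -0.03, and 32 of the 33 fold changes were negative. The summed level of the list was 120 to 188 CPM in control mice and 78.0 to 85.9 CPM in C-3BO mice, without overlap. *Kif11*, a motor of the mitotic spindle (RefSeq NM_010615, chromosome 19 of mm9 from 37450893 to 37496349 on the plus strand), had 2.64, 6.99, 4.14, 4.24 and 4.39 CPM in control mice 1 to 5 and 0.904, 1.04, 0.478, 1.22 and 0.286 CPM in C-3BO mice 1 to 5. The groups were apart (log2 fold change -2.46, standard error 0.44, edgeR adjusted p = 4.23e-05). *Top2a*, the topoisomerase of dividing cells, had 5.29, 9.01, 9.40, 5.91 and 4.39 CPM in control mice 1 to 5 and 1.21, 2.08, 1.43, 1.11 and 0 CPM in C-3BO mice 1 to 5. No count of it was found in C-3BO mouse 5, and the groups were apart (log2 fold change -2.49, standard error 0.47, edgeR adjusted p = 1.01e-04). *Cenpe*, a kinetochore motor, fell with a log2 fold change of -2.01 (edgeR adjusted p = 9.68e-05), and *Mki67*, the common proliferation marker, named after its values were seen, fell from 13.9 ± 6.65 CPM to 3.13 ± 0.637 CPM (SD, n = 5 each, edgeR adjusted p = 1.15e-04). These are transcripts of a few CPM, and a filter that asked for 10 counts in each of the 40 libraries left 7 genes of the list, 1 of them reduced. The count was 15 to 19 with each mouse left out and 20 with the muscle score in the model, and 1 of the 33 genes followed the muscle score in these 10 mice. With these 10 libraries alone, 26 genes of the list were tested and 14 were reduced, by edgeR and by DESeq2.

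Interferon-responsive genes were reduced for 10 of 22 tested, against 4.81% of all tested genes, and none was induced. Their median log2 fold change was -0.91. Their summed level was 511, 526.2, 521, 496 and 1113 CPM in control mice 1 to 5 and 325, 342, 293, 452 and 419.9 CPM in C-3BO mice 1 to 5. Control mouse 5 stood far above the other control mice, and the groups were also apart without it. Without that mouse 7 genes were reduced and the median was -0.72. *Bst2*, the antiviral protein tetherin, had 34.5, 32, 43.3, 40.4 and 58.2 CPM in control mice 1 to 5 and 13.1, 16.1, 17.0, 16.6 and 16.2 CPM in C-3BO mice 1 to 5. The groups were apart (log2 fold change -1.39, standard error 0.20, edgeR adjusted p = 1.11e-06). *Isg15*, a ubiquitin-like modifier, and *Gbp2*, a guanylate-binding protein with close relatives, fell with log2 fold changes of -1.56 and -1.25 (edgeR adjusted p = 7.22e-06 and 7.20e-05). Of 37 proteasome subunits 2 were reduced, against 4.81% of all tested genes. These were *Psmb8* (log2 fold change -1.09, edgeR adjusted p = 2.17e-04) and *Psmb9* (log2 fold change -1.01, edgeR adjusted p = 0.0031), which replace standard subunits in the interferon-induced immunoproteasome. The whole list was otherwise slightly higher, with 14 genes up and 3 down by the adjusted p alone, against 15.8% and 15.9% of all tested genes.

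Markers of immune cells were called about as often as all tested genes, of which 4.81% were reduced. Of 26 tested macrophage markers 1 was reduced, *Itgax* (log2 fold change -1.73, edgeR adjusted p = 0.00856), of 17 T and NK cell markers 1 was reduced, *Ccl5* (log2 fold change -2.08, edgeR adjusted p = 0.00544), and none of 8 B cell markers or of 8 MHC class II genes was called. The summed T and NK cell markers nevertheless lay at 16.7 to 29.2 CPM in control mice and 10.7 to 16.6 CPM in C-3BO mice, without overlap. Summed macrophage markers lay at 287 to 471 CPM in control mice and 191 to 465 CPM in C-3BO mice, overlapping through C-3BO mouse 3 alone, since the other 4, at 191 to 255 CPM, were below all control mice. Of the 26 macrophage fold changes 22 were negative. Of 18 tested chemokines, *Ccl5* and the interferon-inducible *Cxcl10* (log2 fold change -1.68, edgeR adjusted p = 0.00145) were reduced. What part a change in the number of lymphocytes has in the interferon-responsive genes was not tested.

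Creatine cycling genes were reduced for 4 of 6 tested and induced for 1, against 4.81% and 2.37% of all tested genes. Their median log2 fold change was -1.29. *Slc6a8*, the creatine transporter, had 143, 138, 87.1, 109.9 and 93.0 CPM in control mice 1 to 5 and 31.8, 34.1, 25.4, 28.6 and 39.7 CPM in C-3BO mice 1 to 5. The groups were far apart (log2 fold change -1.84, standard error 0.21, edgeR adjusted p = 3.74e-08). *Gamt*, the last enzyme of creatine synthesis, fell (log2 fold change -1.32, edgeR adjusted p = 2.32e-05), and so did *Ckb*, the brain-type creatine kinase that brown adipocytes use, named after its values were seen (log2 fold change -1.25, edgeR adjusted p = 4.63e-04). *Ckmt2*, the creatine kinase of muscle mitochondria, named after its values were seen, had overlapping groups (log2 fold change -1.996, edgeR adjusted p = 0.0258), lost its call by DESeq2 and stood at -0.01 with the muscle score in the model, while the other 3 reduced genes of the list stayed reduced. *Alpl*, tissue-nonspecific alkaline phosphatase, which dephosphorylates phosphocreatine in thermogenic fat, had 34.5, 33.1, 32.7, 24.2 and 22.5 CPM in control mice 1 to 5 and 94.0, 94.5, 101, 105 and 98.1 CPM in C-3BO mice 1 to 5. It moved the other way, with groups apart (log2 fold change 1.74, standard error 0.17, edgeR adjusted p = 1.53e-09).

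Secreted factors and adipokines were mixed. Over all tested genes, 2.37% were induced and 4.81% reduced. Of 12 tested factors secreted by active brown fat, 3 were reduced, *Ptgds*, *Fgf9*, a fibroblast growth factor (log2 fold change -1.79, edgeR adjusted p = 6.47e-05), and *Angptl4*, and none was induced. Leptin, *Lep*, had 152, 162, 279.5, 69.6 and 201 CPM in control mice 1 to 5 and 16.7, 96.5, 63.5, 15.5 and 65.7 CPM in C-3BO mice 1 to 5. Control mouse 4 was within the C-3BO range and the others were above it (log2 fold change -1.74, standard error 0.55, edgeR adjusted p = 0.0142). Adiponectin, *Adipoq*, had 1377 ± 328 CPM in control mice against 1076 ± 156 CPM in C-3BO mice (SD, n = 5 each, log2 fold change -0.36, edgeR adjusted p = 0.0269). In the list of genes higher in white than brown fat, *Rbp4*, the retinol carrier, and *Slc7a10*, an amino acid transporter of white adipocytes, were induced (log2 fold change 2.18, edgeR adjusted p = 4.28e-10 and log2 fold change 1.52, edgeR adjusted p = 3.47e-04), while *Npr3*, the clearance receptor of natriuretic peptides, was reduced (log2 fold change -1.72, edgeR adjusted p = 2.01e-04), as was *Lep*, in all 2 induced and 3 reduced of 13. The stress cytokine *Gdf15* was at 0.661, 0.810, 3.92, 0.625 and 1.20 CPM in control mice 1 to 5 and 0, 0.463, 0.478, 0.111 and 0.430 CPM in C-3BO mice 1 to 5. Control mouse 3 stood above the others, and the groups were apart but the test was not passed (log2 fold change -2.16, standard error 0.89, edgeR adjusted p = 0.0585). It was passed with library totals (edgeR adjusted p = 0.0329), with the muscle score in the model (edgeR adjusted p = 0.0208), by DESeq2 and without control mouse 4. Of 13 genes of the integrated stress response 1 was induced, *Sesn2* (log2 fold change 1.67, edgeR adjusted p = 5.08e-06), and 1 reduced, *Ddit3* (log2 fold change -1.01, edgeR adjusted p = 4.80e-07).

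Most of the extracellular matrix genes that passed the adjusted p were lower. Of 63 non-collagen matrix genes 5 were reduced and none induced, and 16 were lower by the adjusted p alone against 1 higher, where all tested genes had 4.81% reduced and 15.9% lower. *Tnc*, tenascin C, had 40.2, 46.4, 18.4, 25.6 and 16.0 CPM in control mice 1 to 5 and 6.78, 4.05, 2.75, 7.75 and 4.87 CPM in C-3BO mice 1 to 5. The groups were apart (log2 fold change -2.49, standard error 0.36, edgeR adjusted p = 1.39e-06). *Ltbp2*, which binds elastic fibres, and *Thbs1*, thrombospondin 1, had log2 fold changes of -1.14 and -1.36 (edgeR adjusted p = 1.17e-07 and 0.00152). *Fmod*, fibromodulin, also a tendon marker, was reduced with a call that rested on single mice (log2 fold change -1.14, edgeR adjusted p = 0.0242), being lost without control mouse 1 or 2 or C-3BO mouse 3. Of 30 collagens 10 were lower and 1 was higher by the adjusted p alone, against 15.9% and 15.8% of all genes, and *Col28a1* was reduced and *Col10a1* induced (log2 fold change 4.01, edgeR adjusted p = 1.20e-07). Summed collagens were 2927 to 3989 CPM in control mice and 2005 to 2483 CPM in C-3BO mice, without overlap. Markers of fibroblasts and progenitors, the main source of such genes, held 1 reduced gene of 15, *Cd34* (log2 fold change -1.30, edgeR adjusted p = 1.67e-05), which endothelium makes too, and their sums overlapped, at 1089 to 1806 and 1126 to 2445 CPM. Endothelial markers held no called gene of 21, with 9 lower and none higher by the adjusted p alone, against the same shares. Summed Schwann cell markers were 179 to 237 CPM and 147 to 167 CPM, without overlap, with none of 11 called. The part of these cell types in the matrix genes was not tested.

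Ion channels and transporters were called in both directions, against 2.37% induced and 4.81% reduced among all tested genes, and the share of transporters reduced was near that background. Among 38 tested potassium channel genes 4 were induced and 5 reduced. *Kcnk2*, a 2-pore leak channel, rose from 2.94 ± 0.299 CPM to 14.8 ± 6.95 CPM (SD, n = 5 each, log2 fold change 2.33, edgeR adjusted p = 1.78e-07), with C-3BO mouse 1 highest at 26.7 CPM. *Kcnd2* and *Kcnh2*, voltage-gated channels, rose with log2 fold changes of 4.15 and 2.16 (edgeR adjusted p = 6.46e-07 and 2.26e-05). Of 217 solute carriers 11 were induced and 13 reduced, with the lowest adjusted p for the nucleoside transporter *Slc29a1* (log2 fold change 1.06, edgeR adjusted p = 1.34e-08), *Slc6a8* and the riboflavin transporter *Slc52a2* (log2 fold change 1.21, edgeR adjusted p = 3.81e-07).

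**Figure D3:**
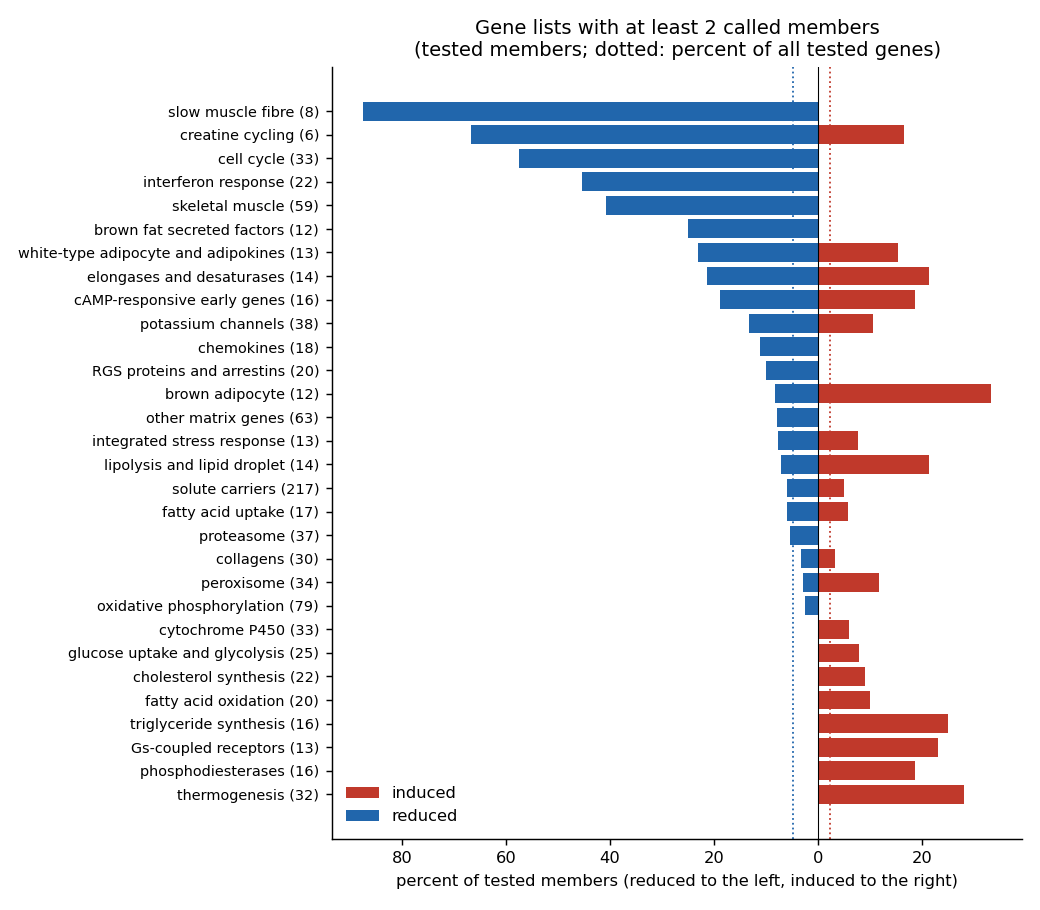
For each gene list with at least 5 tested and 2 called members, bars give the percent of its tested members (number in brackets) that were reduced (blue, to the left) or induced (red, to the right), and dotted lines the same for all tested genes, 4.81% and 2.37%. Slow muscle fibre, creatine cycling, cell cycle, interferon response and skeletal muscle lists reach furthest to the left and brown adipocyte and thermogenesis lists furthest to the right.

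Skeletal muscle genes, which mark muscle that lies against or is dissected with the interscapular fat, were also among the reduced genes. Of 59 tested members of a skeletal muscle list 24 were reduced and none induced, against 4.81% and 2.37% of all tested genes. All 59 log2 fold changes were negative and the median was -1.64. The summed level of the list was 1738, 10170, 18870, 19170 and 16080 CPM in control mice 1 to 5 and 1088, 8729, 2987, 3011 and 7884 CPM in C-3BO mice 1 to 5. The groups overlapped, with control mouse 1 below 4 of the C-3BO mice, and none of the 59 genes had its groups apart. The muscle score, the mean log2 CPM of the list in each mouse, was 6.08 ± 1.54 (SD, n = 5) in control and 4.52 ± 1.24 (SD, n = 5) in C-3BO mice, a difference of -1.57. The number of reduced list members was 33 without control mouse 1 but 8 without control mouse 4, and 10 by DESeq2. It was 0 with the score in the model. In the 10 libraries alone it was 15, and 55 with the replicate number added as a block. At each replicate number the C-3BO mouse had the lower sum, and whether the numbers mark shared handling was not tested.

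Slow- and fast-fibre genes had decreases of similar size, and how many were called changed with the tool, the mice and the model. Of the 8 slow-fibre genes 7 were reduced, against 4.81% of all tested genes, with a median log2 fold change of -2.02. Of the 12 fast-fibre genes none was reduced, with a median of -1.61. DESeq2 called 2 of the 8, and leaving out control mouse 4 left 5. In the 10 libraries alone, 1 of the 8 slow-fibre and 1 of the 12 fast-fibre genes were reduced. With the replicate number added there as a block, 7 of the 8 and 12 of the 12 were. The difference between the fibre types was not tested. *Myl3*, a slow and cardiac myosin light chain, had 5.04, 35.5, 75.8, 79.96 and 48.6 CPM in control mice 1 to 5 and 6.03, 31.0, 8.004, 5.204 and 14.6 CPM in C-3BO mice 1 to 5. Control mouse 1 was as low as the C-3BO mice and C-3BO mouse 2 lay near control mouse 2 (log2 fold change -1.91, standard error 0.46, edgeR adjusted p = 0.00137). *Myl2* and *Tnnc1*, a regulatory light chain and the troponin C of slow fibres, followed the same mice (log2 fold change -2.25, edgeR adjusted p = 0.00345 and log2 fold change -1.96, edgeR adjusted p = 0.00471), and *Jph1*, a protein of the calcium release complex, fell less (log2 fold change -1.17, edgeR adjusted p = 0.00187). In the 30 other libraries 1 of the 8 slow-fibre genes followed the muscle score at r above 0.7, whereas all 12 fast-fibre genes did, and in these 10 libraries 7 of the 8 slow-fibre genes followed it.

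The fast-fibre genes were the more abundant, with sums of 737 to 8235 CPM in control mice and 367 to 3451 CPM in C-3BO mice, against 27.1 to 969 and 30.1 to 351 CPM for the slow-fibre genes. *Acta1*, skeletal α-actin, had 189.6, 1380, 2804, 2629 and 1957 CPM in control mice 1 to 5 and 93.3, 1003, 433, 318 and 891 CPM in C-3BO mice 1 to 5. The values ranged widely within each group and the groups overlapped (log2 fold change -1.71, standard error 1.04, edgeR adjusted p = 0.213). *Myh4*, the fastest myosin, *Ckm*, muscle creatine kinase, *Mylpf*, a fast light chain, and *Pvalb*, parvalbumin, had log2 fold changes of -1.33, -1.64, -1.63 and -1.66 without passing the test (edgeR adjusted p = 0.344, 0.165, 0.0683 and 0.12).

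**Figure D4:**
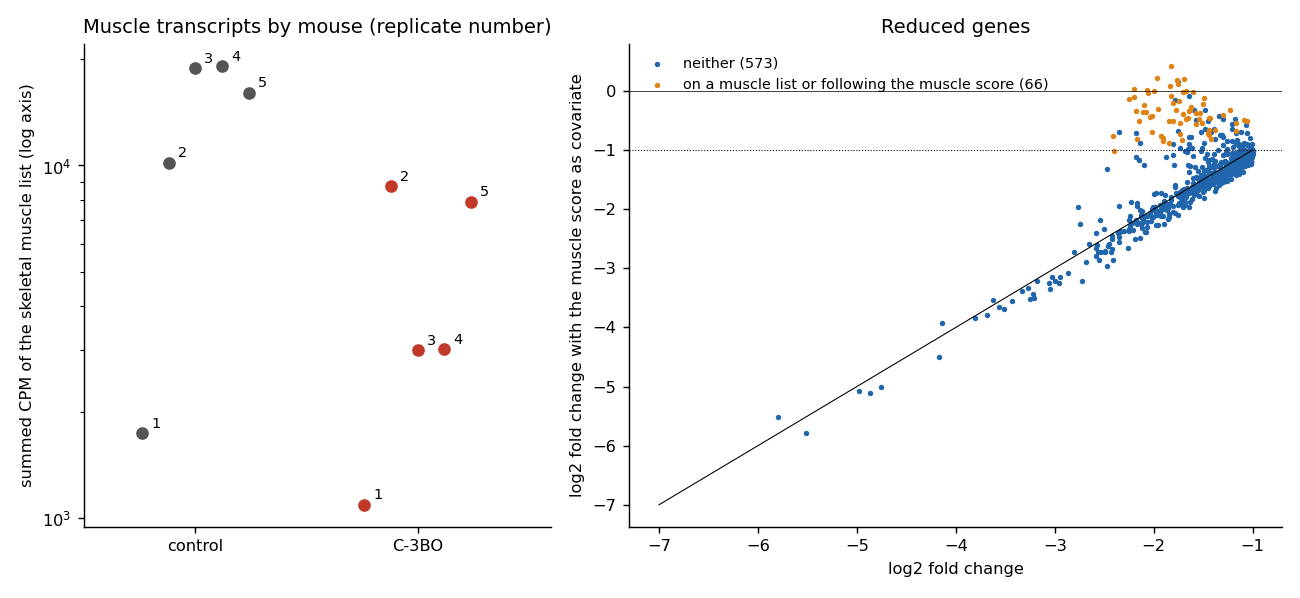
Left, summed CPM of the skeletal muscle list in each mouse on a log axis, numbered by replicate, with control mouse 1 at 1738 CPM among the C-3BO mice. Right, each of the 639 reduced genes by its log2 fold change (x axis) and the same with the muscle score in the model (y axis), where the 66 genes on a muscle list or following the score (orange) lie mostly between -1 and 0 and most of the other 573 (blue) near the line of equality.

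How far muscle transcripts went with the reduced genes was measured in several ways. By list membership, 24 of the 639 reduced genes were on a muscle list, and 57 (8.92%) followed the muscle score at r above 0.7 in the 30 libraries outside the comparison, against 0 of the 315 induced genes and 131 of all tested genes (0.987%). Together these were 66 genes, 10.3% of the reduced ones. The 30 other libraries held less muscle, with summed levels of 132 to 5079 CPM, so the correlation was also taken within the groups of these 10 mice, an addition made after the data were seen. By that measure 162 reduced genes (25.4%) followed the score, against 6 induced genes (1.90%) and 4.67% of all genes, and the 162 held all 66 of the former. The other 477 reduced genes (74.6%) met none of the 3 criteria, and together with the 309 such induced genes they still left 39.3% induced and a majority reduced.

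In addition, the muscle score of each mouse was added to the model. This left 582 reduced genes (4.38% of those tested) and 334 induced ones, or 36.5% induced against 33.0% before. Of the 639 reduced genes 487 (76.2%) kept their call and 152 lost it. Of the 152, 25 still had a log2 fold change below -1 and 50 had one above -0.5. Another 95 genes were reduced only with the score, while 295 of the 315 induced genes kept theirs. All 66 genes on a muscle list or following the score in the other libraries lost the call, which is partly by construction, since the list makes the score. Of the 487 kept genes 328 had groups apart, and of the 152 lost ones 9 did. Of the 477 genes that did not follow the score in these mice 451 were kept, and of the 162 that did, 36 were. *Tpm1*, *Tpm2* and *Des*, muscle and smooth muscle genes that are on no muscle list and were named after their values were seen, had log2 fold changes that went from -1.49, -1.63 and -1.06 to -1.13, -0.32 and -0.51, whereas *Ptgds*, *Lctl* and *Kif11* went from -4.98, -3.69 and -2.46 to -5.07, -3.80 and -2.63.

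As a further measurement, C-3BO and control mice on HFD, separate animals, had little muscle, with summed levels of 242 to 369 and 132 to 548 CPM. There, 293 of the 639 genes reduced on chow (45.9%) were lower and 7 higher in C-3BO mice by the adjusted p alone, against 15.5% and 19.3% of all tested genes. Of the 477 genes that did not follow the muscle score on chow 265 (55.6%) were lower on HFD, of the 162 that did 28 (17.3%), and of the 24 reduced members of the muscle list none. Among the 19 reduced cell cycle genes 6 were lower on HFD and all 19 fold changes were negative, and among the 10 reduced interferon-responsive genes 4 were lower. Of the 315 induced genes 260 (82.5%) were higher there. The difference of the C-3BO effect between the diets passed an adjusted p of 0.05 for 276 tested genes (2.08%), 18 of the reduced and 14 of the induced genes among them. *Ptgds* was one of these, with a log2 fold change of -0.02 (edgeR adjusted p = 0.976) on HFD (test of the difference, edgeR adjusted p = 1.68e-06), and *Fgf9* another, with 0.26 (edgeR adjusted p = 0.533) (test of the difference, edgeR adjusted p = 0.00801). Replicates 4 and 5 of the HFD C-3BO mice are of low depth and hold liver and epididymis transcripts.

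The choice of scaling moved the balance of the 2 directions further than the muscle score did. The TMM factors were lower in C-3BO mice, 0.863 ± 0.044 (SD, n = 5), than in control mice, 0.988 ± 0.0364 (SD, n = 5), without overlap, and the log2 ratio of these means is -0.20. Without them, on library totals alone, the median change over all tested genes, on the log2 scale, moved from -0.03 to -0.23, and 998 genes (7.52%) were reduced and 209 induced, 17.3% induced in place of 33.0%. All 639 reduced genes kept their call and 359 were added, with a median log2 fold change of -0.94 under TMM scaling, just inside the threshold. Of the 315 induced genes 106 were lost, none with a log2 fold change above 1.62. RLE factors gave 659 reduced and 306 induced genes, upper-quartile factors 708 and 287, and TMM factors computed without the muscle genes 636 and 316, so leaving muscle out of the scaling changed 3 calls of reduced genes. Of the 639 genes 636 were reduced under all 5 scalings, and 485 of these also with the muscle score in the model, 326 of them with groups apart.

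The libraries differed in where their counts went. Induced genes took 2.61% to 3.05% of all counts in control mice and 5.70% to 7.04% in C-3BO mice, and reduced genes 2.40% to 3.48% and 0.795% to 1.03%, as follows from how they were chosen. *Ucp1* alone took 0.113% to 0.14% and 0.456% to 0.648%. The 20 most abundant genes took 13.9% to 24.8% of counts in control and 21.1% to 25.8% in C-3BO mice, and the skeletal muscle list 0.173% to 1.94% and 0.0952% to 0.739%. Cytosolic ribosomal proteins, a group whose levels are often taken as steady, held no called gene of 72, with 15 lower and none higher by the adjusted p alone and a median log2 fold change of -0.28 under TMM scaling. What causes the gap between the factors was not tested.

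**Figure D5:**
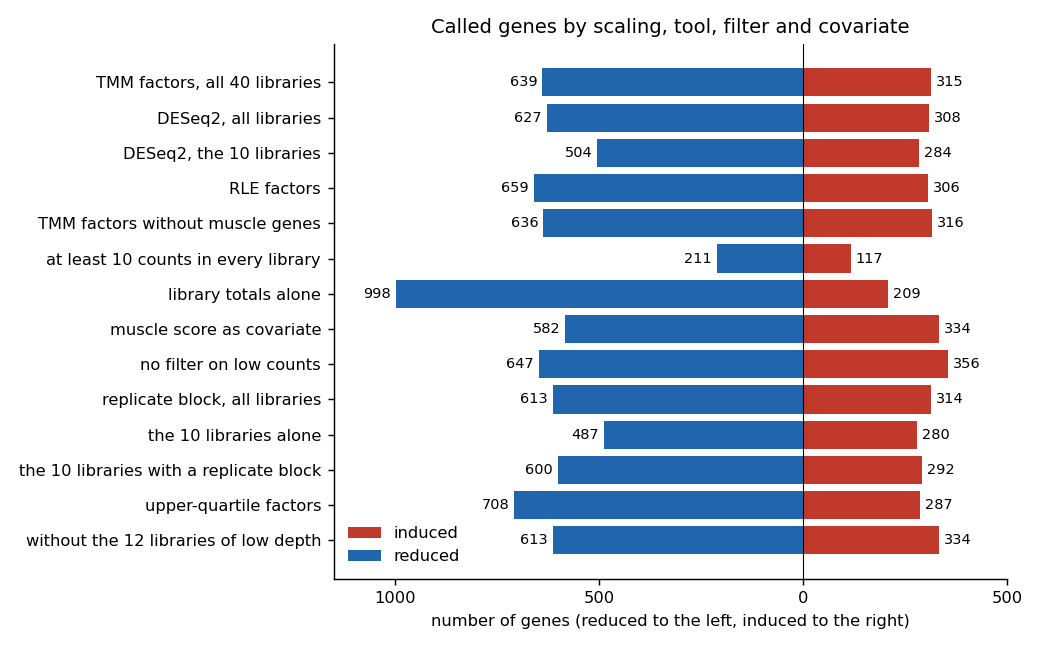
Number of reduced (blue, to the left) and induced (red, to the right) genes under each scaling, tool, filter and covariate, with the numbers at the bar ends. Reduced genes outnumber induced ones in each of the 14 settings, from 211 against 117 when 10 counts were asked of every library to 998 against 209 with library totals alone.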

How the data were processed

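Poly(A) RNA of BAT was sequenced from a library kit that does not mark strand, so overlapping and antisense genes could not be told apart. The authors aligned the reads with STAR to mm9, used HOMER, and counted exon reads of RefSeq genes with iRNA-seq, and the deposited table holds these raw counts for 20295 genes. Counts were analysed with edgeR 4.0.16 in R 4.3.3. Of the genes, 13277 passed filterByExpr (minimum count 10). The quasi-likelihood model was fitted to all 40 libraries in 8 groups with TMM factors, and p-values were adjusted over all tested genes by the Benjamini-Hochberg method. The study's own thresholds (log2 fold change of 1 either way, adjusted p of 0.05) were kept, while its tool, DESeq2 (1.42.0), served as an alternative. Standard errors were derived from the F statistic.

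Depth was 7453294 to 14193478 counts per mouse, and intervals and floors cover counting error only. No pair of the 10 libraries was alike within sampling noise (lowest chi-square per degree of freedom 9.20 over 45 pairs). On simulated counts for this comparison, edgeR recovered 179 of 200 planted changes among 13034 genes with 7 false calls. The planted changes were equal in number and size in both directions and were scored by the adjusted p alone. The simulation therefore cannot show how calls behave under the uneven balance of directions seen here.

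The muscle score is the mean log2 CPM (prior count 2) of 59 skeletal muscle genes, and a gene followed it at r above 0.7 after centring on group means. Genes named are the 12 largest changes in each direction with groups apart and at least 5 CPM, up to 3 called members of each list (the called members where fewer than 3 were called) and key genes named whatever their result. The comparison and its 55 lists were chosen with earlier results of these data known. One key gene, *Fgf21*, did not pass the filter, and a few genes that the rule names are not reported here. Alternatives were other scalings, filters, tools, samples, a replicate block, the muscle score as a covariate and each mouse left out. Replicate numbers were not taken to pair mice. Promoters came from RefSeq, matched by symbol.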

Additional observations from a re-analysis of the deposited data

Results flagged for a closer look

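The effect of C-3BO differed between the diets, by a test of the difference itself, for 5 of the 129 genes examined by name. On the log2 scale the effect on HFD exceeded that on chow by 2.85 for *Elovl3* (edgeR adjusted p = 0.00517), by 1.90 for *Rbp4* (edgeR adjusted p = 8.65e-05) and by 1.19 for *Mogat1* (edgeR adjusted p = 0.0212), all induced on both diets. For *Ptgds* and *Fgf9*, reduced on chow, the difference was 4.96 (edgeR adjusted p = 1.69e-06) and 2.05 (edgeR adjusted p = 0.00801), their log2 fold changes on HFD being -0.02 and 0.26. The 12 libraries of low depth were also those that held liver and epididymis transcripts. Without these 12 the differences of *Elovl3* and *Mogat1* lost the test (2.67, edgeR adjusted p = 0.0606, and 1.17, edgeR adjusted p = 0.0781). That of *Mogat1* also lost it without control mouse 3 (1.06, edgeR adjusted p = 0.0592).

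In 16 of 266 sets of 5 values, 1 mouse stood apart from the rest of its group by the ratio of its gap to the range, and chance gives about 1 in 20. C-3BO mouse 1 was high for *Isg15* (ratio 0.9), *Acaa1b* (0.711) and *Kcnk2* (0.726) and low for *Bst2* (0.774). C-3BO mouse 3 was high for *Adipoq* (0.852), *Elovl4* (0.785) and *Apoe* (0.742), and C-3BO mouse 5 was high for *Kcnh2* (0.861) and low for *Pdk4* (0.736). Control mouse 3 was high for *Gdf15* (0.826) and *Gamt* (0.733), control mouse 5 was high for *Gbp2* (0.822) and without counts of *Slco1a1* (0.729), control mouse 4 was low for *Idi1* (0.761), and control mouse 2 was high for *Mki67* (0.719) and low in its TMM factor (0.791).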

How the results depend on the processing

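Of 114 called genes examined by name, 100 kept an adjusted p under 0.05 and their direction under every alternative that could be run for them, and 14 lost it at least once, 12 of these under an alternative other than the muscle score. The counts of induced and reduced genes were 117 and 211 when 10 counts were asked of every library, which left 8943 genes, 209 and 998 with library totals, and 2093 and 2107 with no fold threshold. Thresholds of 1.5 and 2, added after seeing the data, gave 133 and 290, and 67 and 120. An added minimum of 5 CPM gave 216 and 377. Leaving out each mouse gave 296 to 342 induced and 528 (without control mouse 4) to 669 reduced genes, and muscle score differences of -2.23 to -1.13. The 10 libraries alone, with 12369 genes tested, gave 280 induced and 487 reduced genes, and DESeq2 on them 284 and 504. The number of reduced genes that followed the muscle score was 91 at r above 0.5, 11 at r above 0.9 and, in an alternative added after seeing the data, 162 in these 10 libraries. Same-numbered mice correlated at r from -0.04 to 0.44 (mean 0.17), and 7 of 10 mice correlated best with their own number. The labels do not say what a shared number means, so the main model holds no block. Whether same-numbered mice share a batch was not tested. A replicate block gave 314 and 613 calls over all libraries and 292 and 600 over the 10 alone, where 55 of 59 skeletal muscle genes and 12 of 12 fast-fibre genes (1 without the block in these 10) were then reduced. Uncalled genes changed sign with library totals (*Ppargc1a* -0.16, *Cidea* -0.11, *Adrb1* -0.0562, *Pnpla2* -0.10 and *Lipe* -0.049), and *Ppargc1a* also with upper-quartile factors (-0.0015) and without control mouse 3 (leaving out each mouse gave -0.0044 to 0.1378). With the muscle score in the model, *Acta1* stood at 0.52, *Myh4* at 0.64, *Ckm* at 0.50, *Mylpf* at 0.52, *Pvalb* at 0.50 and *Cox6a2*, the 1 called gene to reverse, at 0.42. Apart from what the alternatives' construction shows (fewer genes, fewer mice), the cause was not tested. Depth limits genes of a few CPM, as most cell cycle genes are.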
